A study of Macaca fuscata with 12 samples.

Results

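CLCN3 and the other genes of the CLC chloride channel family were followed in the cerebral cortex of macaques trained in tool use and of control macaques. The family was taken as every probe set whose only gene symbol was CLCN followed by a digit, which gave 8 probe sets of 4 genes, out of 24956 single-symbol probe sets of 14132 genes on the array. CLCN3 (Entrez gene 694472) had 4 of them, CLCN5 (694497) had 2, and CLCN1 (703944) and CLCN2 (704709) had 1 each. CLCN4, CLCN6 and CLCN7 were not analysed here. CLCN3 was chosen by its measured values, because all of its probe sets were higher in trained than in control tissue around the intraparietal sulcus and 1 of them had a high signal. Its values in that comparison, and in every comparison that uses those arrays, are therefore given as a description with no test. The other 3 genes were taken by symbol alone and were tested throughout.

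The proteins of this family move chloride across membranes and form dimers in which each subunit has its own pathway. Some of them, such as ClC-1 and ClC-2, are chloride channels of the plasma membrane, and others, such as ClC-3 and ClC-5, exchange chloride for protons in the membranes of endosomes. In the brain ClC-3 is found on endosomes and has been placed on synaptic vesicles, and mice that lack it lose neurons of the hippocampus and photoreceptors of the retina.

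RNA from the left hemisphere of 8 Japanese macaques (Macaca fuscata) was hybridised to 12 Affymetrix rhesus macaque arrays. The tissue lay around the lateral sulcus, where it took in the secondary somatosensory cortex (SII), or around the intraparietal sulcus (IPS), and each region had 3 arrays of controls and 3 of animals with tool-use training. SII controls were 1 female of 4 years 6 months (340F) and males of 5 years 4 months (347M) and 5 years 10 months (354M). SII trained animals were a male of 5 years 7 months (334M), a female of 3 years 10 months (335F) and a male of 5 years 1 month (348M). IPS controls were the males 347M, 354M and 358M, the last aged 3 years 9 months. IPS trained animals were the males 334M, 343M and 348M, of which 343M was 6 years old. The 4 animals 334M, 347M, 348M and 354M thus gave tissue to both regions. The samples are blocks of mixed tissue, in which fewer cells of a type and less RNA per cell cannot be told apart. The arrays carry probes designed for another macaque species, and the controls are described only as control animals.

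The deposited values are on a log2 scale and set the median of the 12 arrays to 0 for every probe set, so a value of 0 is the middle array and says nothing of how abundant the transcript is. A coarse signal class was recovered from the spacing of the stored numbers. Of the CLCN3 probe sets, MmugDNA.1551.1.S1_s_at (called 1551_s here) had a high signal, of at least 256 before centring. MmugDNA.1549.1.S1_at (1549), MmugDNA.1551.1.S1_at (1551_at) and MmugDNA.15887.1.S1_at (15887) were of the middle class, as was the CLCN2 set. The middle class covers signals of at least 16, but very dim signals can share its spacing. The CLCN1 set and both CLCN5 sets had a low signal. None of the 8 had a floor value in 2 or more arrays. The median SD within groups over the whole array was 0.23 for the high, 0.37 for the middle and 0.78 for the low class.

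The arrays differed in ways that the groups do not explain. The 27 hybridisation control probe sets averaged 0.44 to 0.54 in SII control 1, SII trained 2 and IPS trained 3, and -0.13 to 0.08 elsewhere. Both arrays of females stood apart on principal component 1 (17.3% of variance), at 130 and 161, with the males between -56.6 and 20.4. Markers of excitatory neurons were measured for 8 of 10 genes and had a high signal for 3 of them, astrocyte markers for 5 of 7 with 4 high, and oligodendrocyte markers for 2 of 7 with both high. No microglial, endothelial, choroid plexus, red blood cell or meningeal marker had a high signal.

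**Figure D1:**
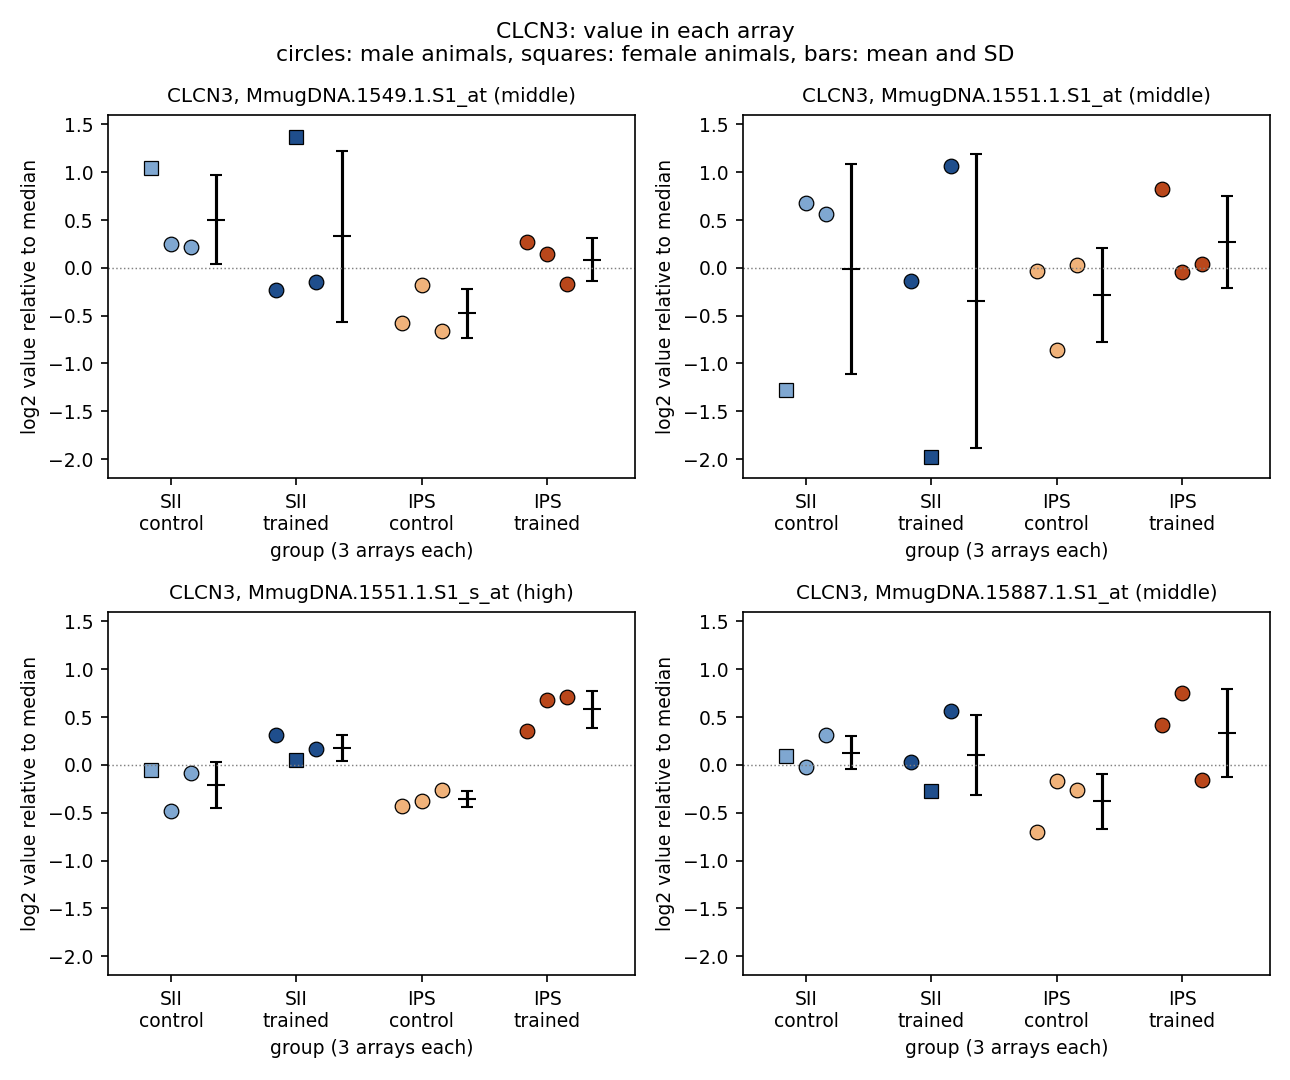
Deposited log2 values of the 4 CLCN3 probe sets on each array, relative to the probe set's median over 12 arrays, by group; each point is 1 array and the bar is the mean of 3. Set 1551_s shows 3 trained IPS arrays between 0.35 and 0.71 and 3 control IPS arrays between -0.43 and -0.27, while sets 1549 and 1551_at are spread widely in SII.

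Around the intraparietal sulcus CLCN3 was higher in the trained animals in all 4 probe sets, which is the property that chose it. In set 1551_s the control arrays held -0.43, -0.38 and -0.27 and the trained arrays 0.35, 0.68 and 0.71. The trained arrays all lay above the control arrays, with a gap of 0.62 between the nearest pair, and the fitted change was 0.93 ± 0.21 (SE, n = 3 per group). Leaving out any 1 array moved it between 0.87 and 1.05.

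The other CLCN3 sets separated the IPS groups by much less. Set 15887 held -0.71, -0.17 and -0.26 in controls and 0.42, 0.75 and -0.16 in trained animals, so that IPS trained 3 cleared the highest control by only 0.013. Its fitted change was 0.71 ± 0.31. Set 1549 held -0.58, -0.18 and -0.66 in controls and 0.27, 0.14 and -0.17 in trained animals, a change of 0.56 ± 0.42. Here too IPS trained 3 was the lowest trained array and lay 0.016 above the highest control. Set 1551_at overlapped, with -0.03, -0.86 and 0.03 in controls against 0.83, -0.05 and 0.04, and a change of 0.55 ± 0.75. Errors are estimated from all 4 groups together. The SD of this set was 1.10 in SII controls and 1.53 in SII trained animals, against 0.49 and 0.48 in IPS. With IPS fitted alone, its change was 0.56 ± 0.37 and that of 1549 was 0.56 ± 0.24. The SE of 1551_s and 15887 stayed at 0.21 and 0.31. With all groups fitted, the change of 1551_at was 0.26 without IPS control 2 and 0.27 without IPS trained 1.

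The mean over the 4 sets was -0.37 ± 0.08 in IPS controls and 0.32 ± 0.19 in IPS trained animals (SD, n = 3), a fitted change of 0.69 ± 0.20 (SE). It stayed between 0.61 and 0.81 when any 1 array was left out. Groups without overlap occurred in 9.49% of all 52766 probe sets in this comparison, and in 5.77% with the trained animals higher. This stands beside 3 of the 4 CLCN3 sets, a count that the choice of CLCN3 favours. Of the 648 genes with 4 probe sets on the array, 72 (11.1%) had all 4 higher in trained IPS. No probe set of any gene passed an adjusted p of 0.05 in limma for IPS (0% of 52766), and 1726 had an unadjusted p under 0.05.

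Cell-type markers were set beside these values. The excitatory neuron markers averaged -0.32 to -0.14 in IPS control arrays and -0.31 to 0.36 in IPS trained arrays, with 6 of 8 markers higher in the trained animals. Microglial markers averaged -0.80 to -0.16 in controls and -0.41 to 0.11 in trained animals, with 5 of 7 higher, and GABA neuron markers -0.20 to 0.17 against -0.35 to -0.06, with 1 of 5 higher. The ranges of these 3 marker lists overlapped between the IPS groups. The difference between 3′ and 5′ GAPDH control probe sets, a sign of RNA integrity, was -0.10 to 0.28 in controls and -0.24 to 0.89 in trained animals, and for actin 0.018 to 0.23 against -0.79 to 1.37. The part of these in the CLCN3 values was not tested.

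Around the lateral sulcus, which took no part in the choice, the CLCN3 probe sets did not move together. Only set 1551_s was higher in the trained animals, with -0.05, -0.49 and -0.09 in controls and 0.31, 0.05 and 0.17 in trained animals. The trained arrays lay above the control arrays by at least 0.10. The fitted change was 0.38 ± 0.21 (SE), with a 95% interval of -0.09 to 0.85 and an adjusted p of 1.00 in limma. Without SII control 2, the lowest array, the change was 0.25.

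The same control and trained SII arrays were also apart in the GAPDH measure, at -0.51 to -0.27 in controls and -0.23 to 0.77 in trained animals. The same measure for actin overlapped, at -1.87 to 0.25 in controls and -1.54 to 1.17 in trained animals. Their part in the 1551_s values was not tested. Groups without overlap made up 7.08% of all probe sets in SII, against 1 of 4 for CLCN3.

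The other 3 sets were lower in the trained animals by less than their errors. Set 15887 held 0.10, -0.03 and 0.32 in SII controls and 0.03, -0.27 and 0.56 in trained animals, and its change was -0.019 ± 0.31, within an interval of -0.70 to 0.67. Set 1549 held 1.04, 0.25 and 0.22 in controls against -0.23, 1.36 and -0.14, and its change was -0.17 ± 0.42. Set 1551_at held -1.28, 0.67 and 0.56 against -0.14, -1.98 and 1.07, a change of -0.34 ± 0.75.

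None of these directions was firm. Set 1549 turned positive without SII control 1 (0.10), SII trained 1 (0.11) or SII trained 3 (0.060), and set 1551_at without SII trained 2 (0.47). Set 15887 turned positive without SII control 3 (0.069), SII trained 1 (0.027) or SII trained 2 (0.17). The mean over the 4 sets was 0.10 ± 0.15 in SII controls and 0.07 ± 0.32 in trained animals (SD). Its change was -0.037 ± 0.20 (SE), with an interval of -0.49 to 0.41. That mean change was also positive without SII control 3 (0.038), SII trained 1 (0.0074) or SII trained 2 (0.10). In the mean, sets 1549 and 1551_at offset each other in SII control 1 (1.04 and -1.28) and SII trained 2 (1.36 and -1.98). The spread of the mean therefore hides the disagreement of these sets. Its SE includes those arrays and also stands beside the IPS change and the region differences of the mean. All 4 adjusted p-values for SII were 1.00 in limma, where 0% of 52766 probe sets passed and 2043 had an unadjusted p under 0.05. The interval leaves room for a change in either direction.

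The arrays of the 2 female animals stood apart in sets 1549 and 1551_at, in opposite directions. In set 1549 they held 1.04 and 1.36, above all 10 male arrays (-0.66 to 0.27). In set 1551_at they held -1.28 and -1.98, below all male arrays (-0.86 to 1.07). In set 1551_s they lay at -0.05 and 0.05, near the male median of 0.04, and in set 15887 at 0.10 and -0.27, within the male range. Accordingly the sets 1549 and 1551_at were negatively correlated over the 12 arrays (Pearson r = -0.57) and positively over the 10 male arrays (r = 0.45). Both arrays were among the 3 with raised hybridisation controls. The other raised array, IPS trained 3, came from a male and from the other region, and held -0.17 in 1549 and 0.04 in 1551_at. With 1 array of each female, sex, raised hybridisation controls and the single array cannot be told apart, and none was tested. Sets 1551_s and 15887 had r = 0.56 over the 12 arrays and 0.58 over the male ones. Set 1551_s had only r = 0.10 with 1551_at (0.11 over the male arrays) and 0.11 with 1549 (0.30). Set 15887 had r = 0.42 with 1551_at (0.47 over the male arrays) and 0.19 with 1549 (0.70). Such correlations describe these arrays, which share groups and animals. Each SII group held 1 female and the IPS groups none.

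**Figure D2:**
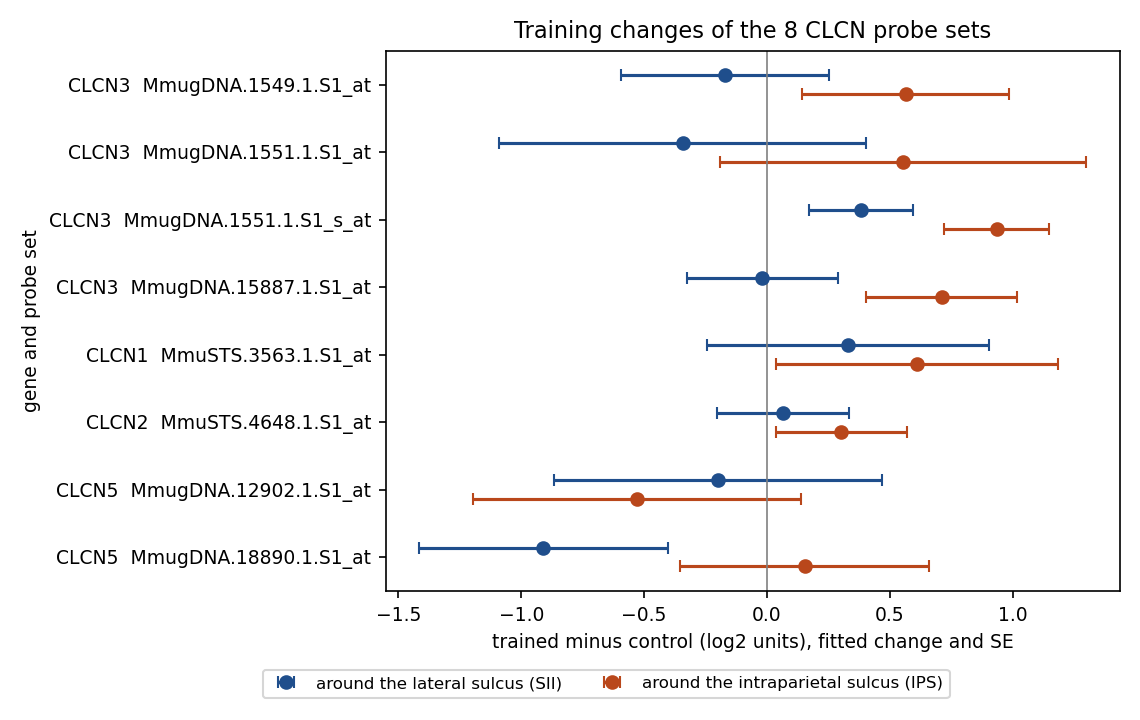
Fitted trained minus control changes of the 8 CLCN probe sets in log2 units for SII (blue) and IPS (orange); points are limma estimates and bars are 1 SE, from 3 arrays per group. The CLCN3 sets lie at 0.55 to 0.93 in IPS and at -0.34 to 0.38 in SII. The SE of a set is estimated from all 4 groups together, so its bar is the same in both regions.

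Set against each other, the IPS changes of CLCN3 exceeded the SII changes in all 4 sets, by 0.74 ± 0.59 (1549), 0.90 ± 1.04 (1551_at), 0.55 ± 0.29 (1551_s) and 0.73 ± 0.43 (15887), and by 0.73 ± 0.28 for their mean. With 1 array left out, the difference for 1551_at ran from 0.11 (without SII trained 2) to 1.62 (without SII trained 3). For 1549 it ran from 0.45 (without SII trained 1) to 1.24 (without SII trained 2). These differences contain the contrast that chose CLCN3 and carry no test. The size for 1551_s was 0.35 without the 3 arrays with raised hybridisation controls. For this difference of changes 0% of 52766 probe sets passed the adjusted threshold in limma, and 1944 had an unadjusted p under 0.05.

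Ordered by the mean of the 4 sets, CLCN3 was highest in IPS trained animals (0.11 to 0.47), followed by SII controls (-0.05 to 0.25), SII trained animals (-0.21 to 0.41) and IPS controls (-0.44 to -0.29). The first 3 groups overlapped one another. IPS controls lay below every other array. The lowest group mean fell in IPS controls for 3 of the 4 sets, 1551_at being the exception, with SII trained animals lowest.

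The regions were also set against each other within controls and within trained animals. In controls the IPS minus SII difference was -0.48 ± 0.20 (SE) for the mean of the 4 sets. It was -0.97 ± 0.41 for set 1549, -0.51 ± 0.30 for 15887, -0.30 ± 0.73 for 1551_at and -0.15 ± 0.21 for 1551_s. Sets 1549 and 15887 had groups without overlap, a property of 19.4% of all probe sets in that comparison. The direction of 1551_at turned without SII control 2 (0.045) and also without SII control 3. Several other measures separated the same control arrays. Excitatory neuron markers averaged -0.32 to -0.14 in IPS controls and 0.13 to 0.22 in SII controls. Astrocyte markers averaged -0.081 to -0.043 against -0.022 to 0.29, and oligodendrocyte markers -0.49 to -0.023 against 0.069 to 0.19. The ranges of the other marker lists overlapped. GAPDH 3′ minus 5′ was -0.10 to 0.28 in IPS controls and -0.51 to -0.27 in SII controls, while the same measure for actin overlapped (0.018 to 0.23 against -1.87 to 0.25). The part of these in the CLCN3 values was not tested.

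In trained animals the IPS minus SII difference was 0.40 ± 0.21 for set 1551_s, whose groups were apart by 0.042, and 0.24 ± 0.20 for the mean of the 4 sets. That mean difference was 0.11 without SII trained 2, 0.16 without IPS trained 1 and 0.43 without SII trained 3. Groups without overlap made up 7.87% of all probe sets there. It was 0.60 ± 0.73 for 1551_at (-0.18 without SII trained 2), 0.22 ± 0.30 for 15887 and -0.23 ± 0.41 for 1549, the last of which became 0.40 without the 3 arrays with raised hybridisation controls and 0.27 without SII trained 2. For 15887 it ran from 0.017 (IPS trained 2 left out) to 0.48 (IPS trained 3 left out), with 0.034 and 0.46 when SII trained 2 or SII trained 3 was left out. No probe set of any gene passed the adjusted threshold in limma for the region difference in controls (0% of 52766, with 4035 at an unadjusted p under 0.05) or in trained animals (0%, with 2580).

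**Figure D3:**
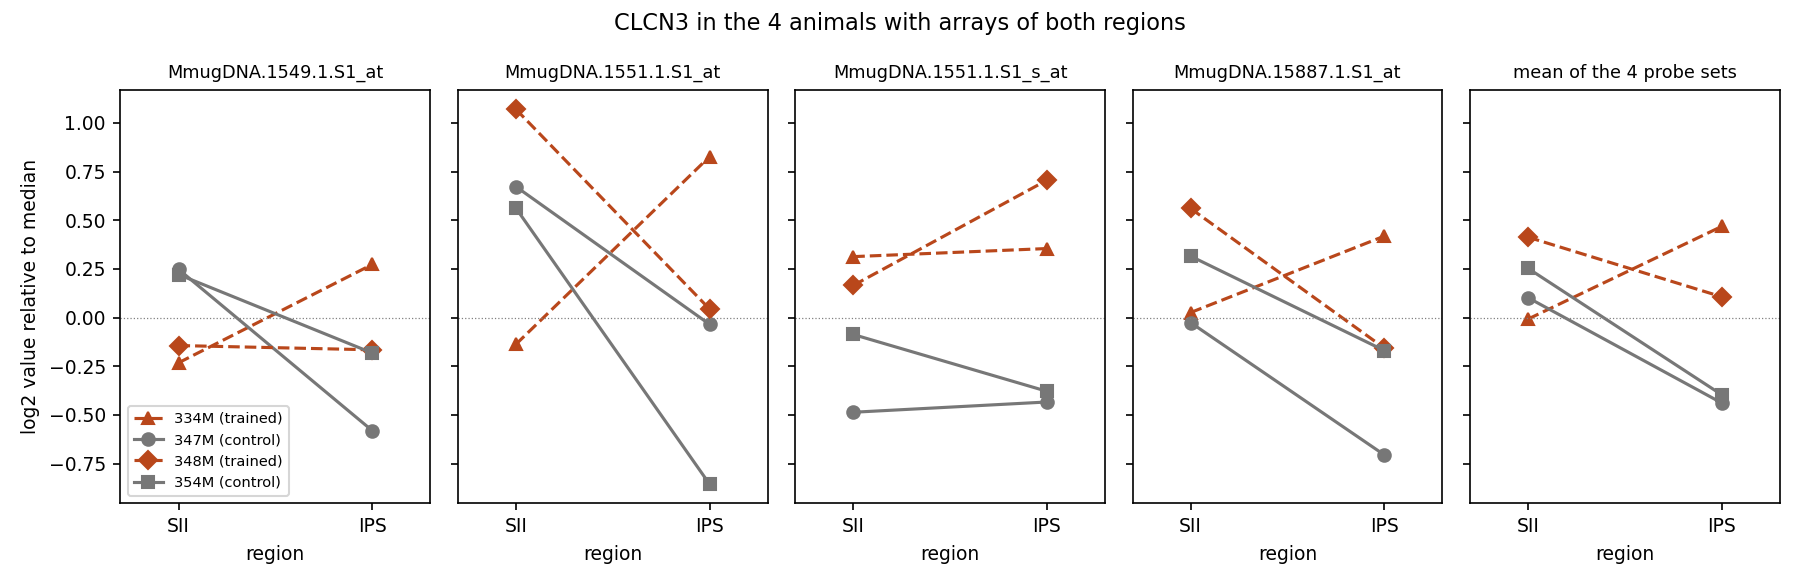
CLCN3 in the 4 animals that gave tissue to both regions, in log2 units relative to each probe set's median, with a line from the SII array to the IPS array of each animal. In the mean of 4 sets both control animals lay lower in IPS, while the trained animals went 0.48 up (334M) and 0.31 down (348M).

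The 4 animals with both regions allowed the regions to be compared within an animal. The mean of the CLCN3 sets was 0.54 lower in IPS than in SII in control 347M (-0.44 against 0.10) and 0.65 lower in control 354M (-0.40 against 0.25). In trained 334M it was 0.48 higher in IPS (0.47 against -0.01), and in trained 348M it was 0.31 lower (0.11 against 0.41). The trained animals therefore went in opposite directions. In 348M the sets themselves disagreed, with 1551_s 0.54 higher in IPS and 1551_at 1.03 lower. They also disagreed in control 347M, where IPS minus SII was 0.053 for 1551_s and -0.83 to -0.68 for the other sets. For 1551_s it was 0.042 in trained 334M and -0.29 in control 354M. With 2 animals on each side no test was made.

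CLCN2 encodes ClC-2, a channel that opens on hyperpolarisation and is present in neurons and in glia. Its single probe set, MmuSTS.4648.1.S1_at, had the smallest range of the other family members, from -0.17 to 0.63. SII controls held 0.40, 0.09 and -0.16 and SII trained animals -0.13, 0.63 and 0.03, a change of 0.065 ± 0.27 with an interval of -0.53 to 0.66. The sign turned without SII control 3 (-0.070) or SII trained 2 (-0.16). IPS controls held -0.08, -0.17 and -0.03 and IPS trained animals -0.10, 0.22 and 0.49. The IPS change was 0.30 ± 0.27 with an interval of -0.29 to 0.90, and 0.16 without IPS trained 3. The groups overlapped in both regions, and the adjusted p in limma was 1.00 in each.

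**Figure D4:**
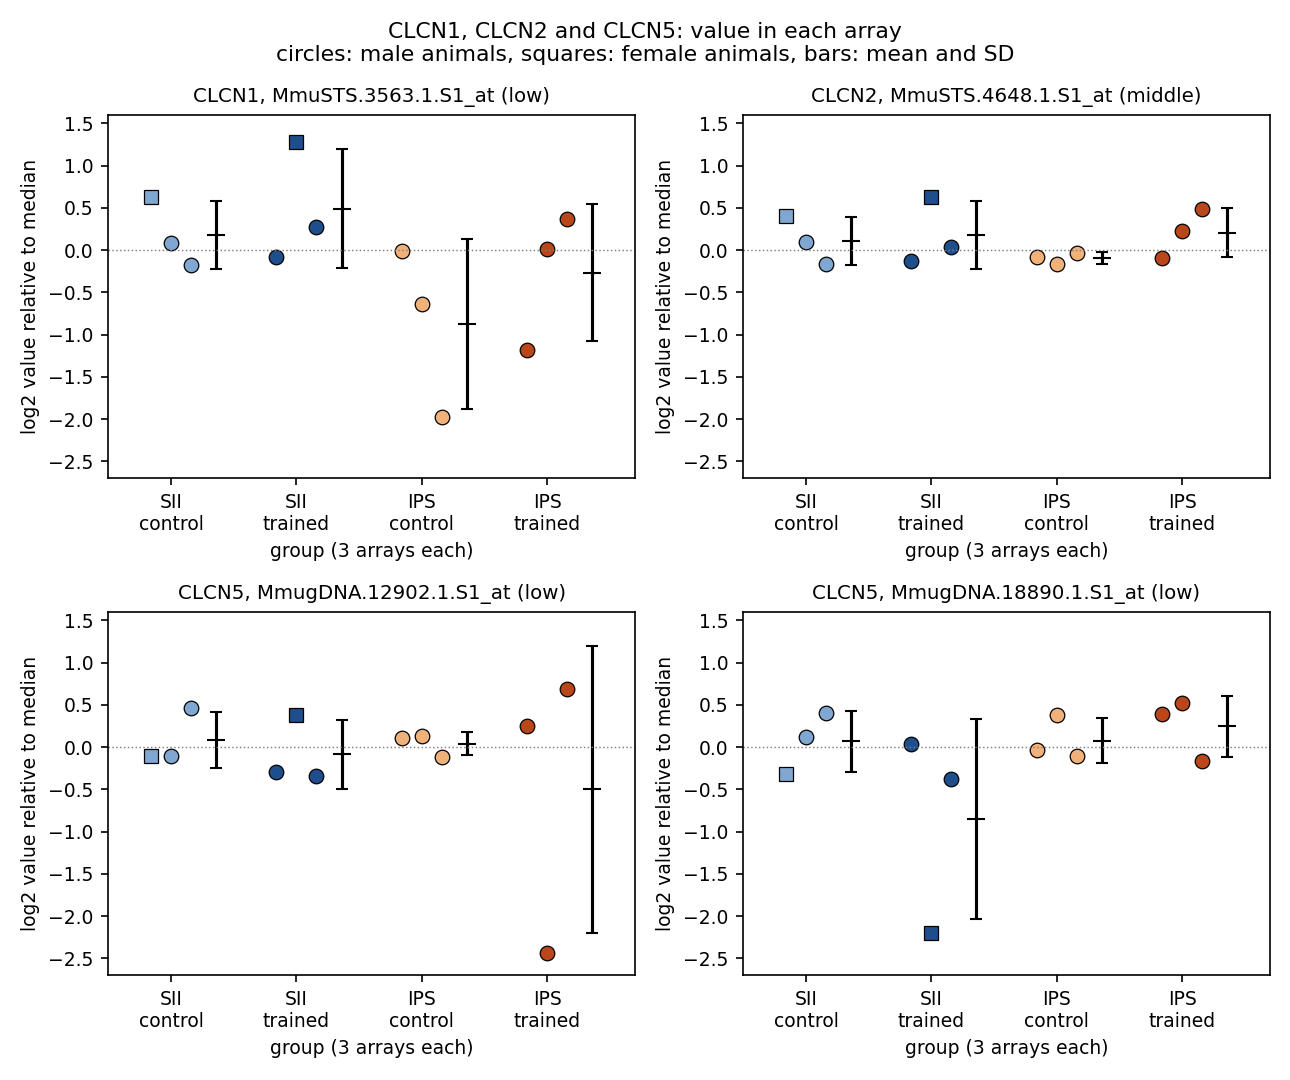
Deposited log2 values of the CLCN1, CLCN2 and CLCN5 probe sets on each array, relative to the probe set's median over 12 arrays, by group; each point is 1 array and the bar is the mean of 3. Single low arrays stand out in CLCN5, at -2.44 in IPS trained 2 for 1 set and at -2.19 in SII trained 2 for the other, and all groups overlap within a region.

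CLCN5 encodes ClC-5, an endosomal exchanger known best from the kidney proximal tubule and close to ClC-3 in sequence. Its sets were MmugDNA.12902.1.S1_at (12902) and MmugDNA.18890.1.S1_at (18890), and they were weakly and negatively correlated over the 12 arrays (r = -0.30). In SII, set 18890 held -0.32, 0.13 and 0.40 in controls and 0.03, -2.19 and -0.38 in trained animals. Its change was -0.91 ± 0.51 with an interval of -2.03 to 0.21 and an adjusted p of 1.00 in limma. Without SII trained 2, the array at -2.19, it was -0.23.

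Set 12902 held -0.11, -0.10 and 0.46 in SII controls and -0.30, 0.38 and -0.34 in trained animals, a change of -0.20 ± 0.67 that shrank to -0.0093 without SII control 3. In IPS it held 0.10, 0.14 and -0.12 in controls and 0.25, -2.44 and 0.69 in trained animals, a change of -0.53 ± 0.67. Without IPS trained 2, the array at -2.44, that change was 0.45. Set 18890 held -0.03, 0.38 and -0.11 in IPS controls and 0.39, 0.52 and -0.17 in trained animals, a change of 0.15 ± 0.51 that became 0.0064 without IPS trained 2. All adjusted p-values were 1.00 in limma. Each CLCN5 set thus had a low signal and 1 array far below the rest. That array also enters the error given for the other region. With 1 region fitted alone, the SE was 0.34 for 12902 in SII and 0.28 for 18890 in IPS.

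CLCN1 encodes ClC-1, the chloride channel of skeletal muscle. Its set, MmuSTS.3563.1.S1_at, held 0.62, 0.09 and -0.17 in SII controls and -0.09, 1.28 and 0.28 in SII trained animals. In IPS it held -0.01, -0.64 and -1.97 in controls and -1.18, 0.01 and 0.37 in trained animals. The changes were 0.33 ± 0.58 in SII and 0.61 ± 0.58 in IPS, each with an adjusted p of 1.00 in limma and with overlapping groups. The SII change was -0.060 without SII trained 2, and the IPS change was 0.059 without IPS control 3 and 1.06 without IPS trained 1. Among controls CLCN1 had the largest region difference of the 3 tested genes, with IPS minus SII at -1.03 ± 0.57 and an adjusted p of 0.694 in limma. Without IPS control 3, the array at -1.97, it was -0.49.

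Across the 4 probe sets of CLCN1, CLCN2 and CLCN5, 2 were higher and 2 lower in trained SII, with a median change of -0.066 beside 0.056 over all probe sets. In IPS 3 were higher and 1 lower, with a median of 0.23 beside 0.014. None of the 4 had groups without overlap in either region, and none passed in any of the 5 comparisons. The differences between the IPS and SII changes were 0.28 ± 0.80 for CLCN1, 0.24 ± 0.37 for CLCN2, and -0.33 ± 0.93 (12902) and 1.06 ± 0.70 (18890) for CLCN5, with an adjusted p of 1.00 for each in limma. With 1 array left out, the CLCN1 and 12902 differences changed sign, CLCN2 ran from 0.090 to 0.46, and 18890 was 0.41 without SII trained 2.

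Genes that work beside the CLC proteins were taken as 4 lists and fitted as the mean over each gene's probe sets. No gene on the array passed the adjusted threshold in limma in either region (0% of 14132 in SII and in IPS). An unadjusted p under 0.05 was reached by 493 genes in SII (3.49%) and 406 in IPS (2.87%). The median change over all genes was 0.031 in SII and 0.030 in IPS. Genes of the lists are named below for a small unadjusted p, a choice that favours groups without overlap. Such groups made up 7.08% of all probe sets in SII and 9.49% in IPS. The share among gene means was not computed.

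**Figure D5:**
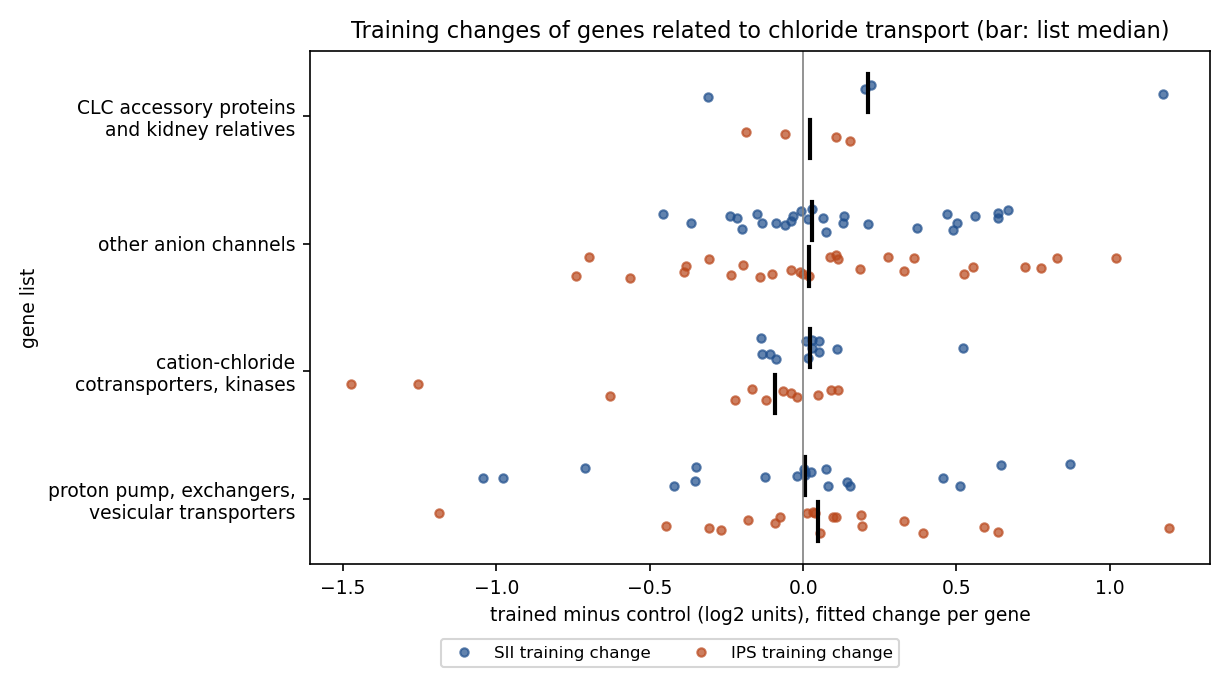
Fitted trained minus control change of each measured gene of the 4 chloride transport lists, in log2 units, for SII (blue) and IPS (orange); each point is a gene and the black bar is the list's median. The medians lie between -0.092 and 0.21, against 0.031 and 0.030 over all genes in each region.

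Accessory proteins of the CLC family were measured for 4 of 8 listed genes. In SII 3 were higher and 1 lower (median 0.21), and in IPS 2 were higher and 2 lower (median 0.023), with none past the adjusted threshold. BSND, the barttin subunit of the kidney CLC channels, had a change of 1.17 ± 0.74 in SII, and its control and trained arrays overlapped. TMEM9, an endosomal and lysosomal membrane protein, had -0.31 ± 0.28 in SII. In IPS HEPACAM, the glial adhesion protein that binds ClC-2, had 0.15 ± 0.19, and OSTM1, the subunit of ClC-7, had 0.11 ± 0.29.

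Other anion channels were measured for 27 of 36 genes, with 15 higher and 12 lower in both SII (median 0.030) and IPS (median 0.018). None passed the adjusted threshold, and 2 in SII and 3 in IPS had an unadjusted p under 0.05. ANO3, an anoctamin and a high-signal gene, held -0.63, -0.74 and -0.51 in SII controls and 0.20, 0.20 and -0.37 in SII trained animals. Its change there was 0.64 ± 0.19 with an adjusted p of 1.00 in limma. In IPS its change was 0.33 ± 0.19. The groups did not overlap in either region, a property that naming by a small p favours. ANO6, a scramblase of the same family with 1 of its 2 probe sets at the floor, had 0.37 ± 0.17 in SII.

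CLIC4, an intracellular chloride channel protein with 4 probe sets of low, high, middle and low signal, also had IPS groups that did not overlap. It held -0.12, -0.45 and -0.81 in IPS controls and 0.27, 0.48 and 0.16 in IPS trained animals. Its change was 0.78 ± 0.24 in IPS and 0.015 ± 0.24 in SII, each with an adjusted p of 1.00 in limma. BEST2, a bestrophin, had a change of -0.74 ± 0.31 in IPS. CLIC2, which lay outside the rule for named genes and is given because it was the last of the 3 with an unadjusted p under 0.05 in IPS, had 1.02 ± 0.46.

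Cation-chloride cotransporters and their kinases, which set chloride inside neurons, were measured for 12 of 15 genes. In SII 8 were higher and 4 lower (median 0.022), and in IPS 3 were higher and 9 lower (median -0.092). None passed the adjusted threshold. SLC12A1, the kidney cotransporter, held 0.48, 0.88 and 0.13 in IPS controls and -0.93, -0.48 and -0.87 in IPS trained animals, groups that did not overlap. Its change of -1.25 ± 0.35 had an adjusted p of 1.00 in limma, and both of its probe sets had a low signal. SLC12A3, also of the kidney, had -0.63 ± 0.38 in IPS. In SII SLC12A9 had 0.52 ± 0.41 and the kinase STK39 -0.11 ± 0.20.

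The proton pump, the endosomal proton exchangers and the vesicular transporters act on endosomes or synaptic vesicles, and 20 of 35 such genes were measured. In SII 12 were higher and 8 lower (median 0.0063), and in IPS 13 were higher and 7 lower (median 0.047), with none past the adjusted threshold. SLC30A3, the zinc transporter of synaptic vesicles, had a high signal. It held -0.14, -0.23 and -0.26 in SII controls and 0.54, 0.19 and -0.0011 in SII trained animals, a change of 0.46 ± 0.17 with an adjusted p of 1.00 in limma. The groups did not overlap, and the GAPDH measure, but not that of actin, separated these same arrays, as given above for set 1551_s. In IPS SLC30A3 held -0.06, 0.0011 and -0.07 in controls and 0.18, 0.12 and 0.16 in trained animals. These groups did not overlap either, and the change was 0.19 ± 0.17. The GAPDH and actin measures both overlapped between the IPS groups. Their part in the SLC30A3 values was not tested.

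Among the pump subunits, ATP6V0E1 had -0.42 ± 0.23 in SII. In IPS ATP6V0D2 had 0.64 ± 0.48, with 1 of its 2 probe sets at the floor, and ATP6V1C2 had 1.19 ± 0.92 with a low signal.

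The probe sets whose values most resembled the mean of the 4 CLCN3 sets over the 12 arrays were sought among 15441 single-symbol probe sets of the high and middle classes. The 6 highest Pearson correlations belonged to JPT1 (0.85), SEPTIN6 (0.84), LOC702527 (0.82), SUPT3H (0.81), MEGF9 (0.80) and RPN2 (0.80). The 99th percentile over all candidates was 0.62 and the median 0.041. JPT1, the 1 high-signal set of the 6, ran from -0.43 to -0.19 in IPS controls and from -0.014 to 0.63 in IPS trained animals. CLCN3 was chosen on its IPS values, so a set picked for likeness to it tends to share that contrast. By rank correlation 4 of the 6 were again among the highest 6. Other probe sets of these genes had correlations of -0.52 to 0.59 with CLCN3, below those of the 6 sets named. Those of JPT1 had 0.22 and 0.26, both with a high signal, and 0.41.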

How the data were processed

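The table holds 52865 probe sets on 12 arrays. The authors deposited log2 values in which each probe set has a median of 0, and the log base was inferred from their range. The submitters' processing notes name MAS5, with no version. How arrays were scaled to each other was not given in the sources used here. Array medians lay between -0.04 and 0.11. After 99 controls were left out, 52766 probe sets entered limma 3.58.1, run in R 4.3.3 beside statmod 1.5.0. The model had the means of the 4 groups, a shared-animal correlation (0.0474 for probe sets, 0.0862 for genes), empirical Bayes moderation and Benjamini-Hochberg adjustment over all probe sets or 14132 genes, 2-sided. The fit's residual degrees of freedom were 8, and it weights arrays of shared animals, so a fitted change can differ slightly from the difference of means. Each probe set has 1 estimate of spread from all 4 groups, so the arrays of each region enter the errors of both. An exact permutation test of 3 against 3 arrays was not run, since it could not pass the threshold. Signal classes came from the spacing of single-precision numbers on at least 11 of 12 arrays, and a floor from a lowest value shared by at least 2 arrays. Precision is limited by how few arrays there are: the median SE of a training change was 0.44.

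The members, the gene lists and the rule for named genes were chosen with earlier results of these data known. Every CLCN probe set was named, with the 2 list members of smallest unadjusted p in each region and the 6 probe sets most like CLCN3. The fit was tested on simulated data with independent noise and changes larger than any CLCN change given here. That test does not cover changes of the sizes reported or arrays that share an animal. Alternatives were quantile normalization, aligned medians, no animal correlation, a replicate block, males only, 3 arrays left out, each region alone, no floor probe sets, array weights and each array left out.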

Additional observations from a re-analysis of the deposited data

How the results depend on the processing

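Changes of the CLCN probe sets and of the CLCN3 mean were recomputed under 22 other settings. Of 918 such changes, 869 kept their sign and 49 changed it. The kept signs include settings that hardly touch a change, such as leaving out an array of the other region. No change of a tested CLCN probe set passed the adjusted threshold. As no CLCN set had a floor, leaving out floor sets left the CLCN3 mean as it was. The number of arrays and, for CLCN1 and CLCN5, the low signal limit what can be seen.

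In limma, with 0 probe sets past the adjusted threshold as fitted, quantile normalization gave 1 for SII, 4 for the region difference in controls and 3 in trained animals, and 2 genes for SII. Array weights gave 2 for SII and 23 for the region difference in controls, where aligned medians and males only gave 1 each. Leaving out each array gave 0 to 5 for SII (0 to 4 genes), 0 to 2 for IPS (0 to 1 genes), 0 to 2 for the difference, 0 to 5 for the region difference in controls and 0 to 2 in trained animals. The causes were not tested.

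The SII change of CLCN2 was -0.025 under quantile normalization, -0.015 with males alone and -0.012 without the 3 arrays of raised hybridisation controls. That of CLCN3 set 15887 was 0.00508 under quantile normalization, 0.16 in males only, 0.15 without the 3 arrays and 0.00427 with array weights, and the CLCN3 mean was 0.024 in males only and 0.019 without the 3 arrays. The difference of changes for CLCN5 set 12902 was 0.00368 in males only. The region difference in controls for set 18890 was -0.026 under quantile normalization, -0.00385 with aligned medians, -0.18 in males only, -0.18 without the 3 arrays and -0.12 with array weights.

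Leaving out each array gave SII changes of -0.060 to 0.60 for CLCN1, -0.16 to 0.21 for CLCN2, -0.69 to 0.11 for CLCN3 set 1549, -1.06 to 0.47 for 1551_at, -0.25 to 0.17 for 15887 and -0.22 to 0.10 for the CLCN3 mean. For CLCN5 set 12902 it gave -1.12 to 0.45 in IPS, -0.94 to 0.61 for the difference, and -0.14 to 0.15 in controls and -0.98 to 0.57 in trained animals between regions. For set 18890 the region difference in controls was -0.18 to 0.17. CLCN1 had -0.25 to 0.74 for the difference and CLCN2 -0.11 to 0.26 for the region difference in trained animals. For CLCN3 set 1551_at the region difference ran from -0.91 to 0.05 in controls and -0.18 to 1.33 in trained animals, and for 1549 from -0.52 to 0.27 in trained animals.

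With the replicate number as a block, 0 probe sets passed in each comparison, and the SII change of set 1551_s was 0.38 ± 0.23. Arrays with the same number had correlations of -0.20 to 0.06 in their deviations from the group means within a region, so the numbers were not taken as pairs. The block changed no other call.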
